A study of Mus musculus with 24 samples.

Results

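Methionine restriction was examined here as a single contrast over both protein sources: all 12 restricted mice were set against all 12 control mice, with the protein source (elemental amino acids or casein) as an additive term, for every gene of the count table. All 24 libraries of the series entered the comparison, and 15176 of the 16821 listed genes had enough reads to be tested. The libraries hold IWAT, inguinal white adipose tissue, which is the fat under the skin of the groin. The mice were male C57BL6/J, began the diets at 5 weeks of age and ate them for 12 weeks. They were 4 months old at death, which followed a fast of 4 h. The restricted diets (MR) held 0.17% methionine. It was given in elemental amino acids (elemental MR, 6 mice) or in casein whose methionine had been lost by oxidation and was then added back to that level (oxidized casein MR, 6 mice). The control diets held 0.86% methionine, given in elemental amino acids (elemental control, 6 mice) or in casein that was not oxidized (casein control, 6 mice). On casein, oxidation of the protein and the methionine level therefore change together and cannot be told apart, while on elemental amino acids the labels name methionine as the difference. The labels report more mice per diet than were sequenced, and how the 6 were chosen is not given. The label text on the series design speaks of the liver, whereas the title, the sample source and the tissue protocol name IWAT. Levels of 6 markers of white adipocytes summed to between 20670 and 37190 CPM in the MR mice and between 15030 and 35450 CPM in the control mice. CPM are reads per 1e+06 counted reads of the tested genes of a library, scaled by its TMM factor. Alb, the albumin of hepatocytes, stood between 106.9 and 864.7 CPM in the MR mice and between 48.72 and 5610 CPM in the control mice, with 1 control library above 1000 CPM.

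Methionine is an essential amino acid that carries sulfur and, as S-adenosylmethionine, the methyl groups of most methylation reactions. Its restriction in the diet of rodents is known for lower adiposity, higher energy expenditure and beige adipocytes, which resemble brown fat cells, within subcutaneous fat. These cells burn fuel as heat through Ucp1, a protein that lets protons back across the inner mitochondrial membrane without the making of ATP. Noradrenaline drives them through beta-adrenergic receptors, cAMP and the coactivator PGC1-alpha.

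Reads counted in the listed genes came to between 7468336 and 17129341 per library in the MR mice and between 8023612 and 19868913 in the control mice. Transcripts of the lymph node that lies in this pad (B cell markers at a mean above 4 log2 CPM) were present in 7 of 12 MR libraries, 5 of them elemental, and in 8 of 12 control libraries, 4 of them elemental. Markers of skeletal muscle were high in 1 elemental MR library and 1 elemental control library, with Acta1 above 1000 CPM. A low count of a gene in such pieces of tissue can come from fewer cells of a type or from less RNA per cell, and these cannot be told apart here.

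Pooling called 1026 genes at a Benjamini-Hochberg adjusted p under 0.05 in edgeR's quasi-likelihood test, which is 6.76% of the genes tested. Of these, 769 (5.07%) were higher and 257 (1.69%) lower with MR. The changes were mostly moderate: the median log2 fold change was 0.54 over the higher and -0.54 over the lower calls, and 89 genes were higher and 49 lower by at least 2-fold. Over all genes tested the median was -0.07. Log2 fold changes had a median standard error (SE) of 0.154 with 12 mice per group, against 0.218 on casein and 0.217 on elemental amino acids with 6 mice per diet.

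**Figure D1:**
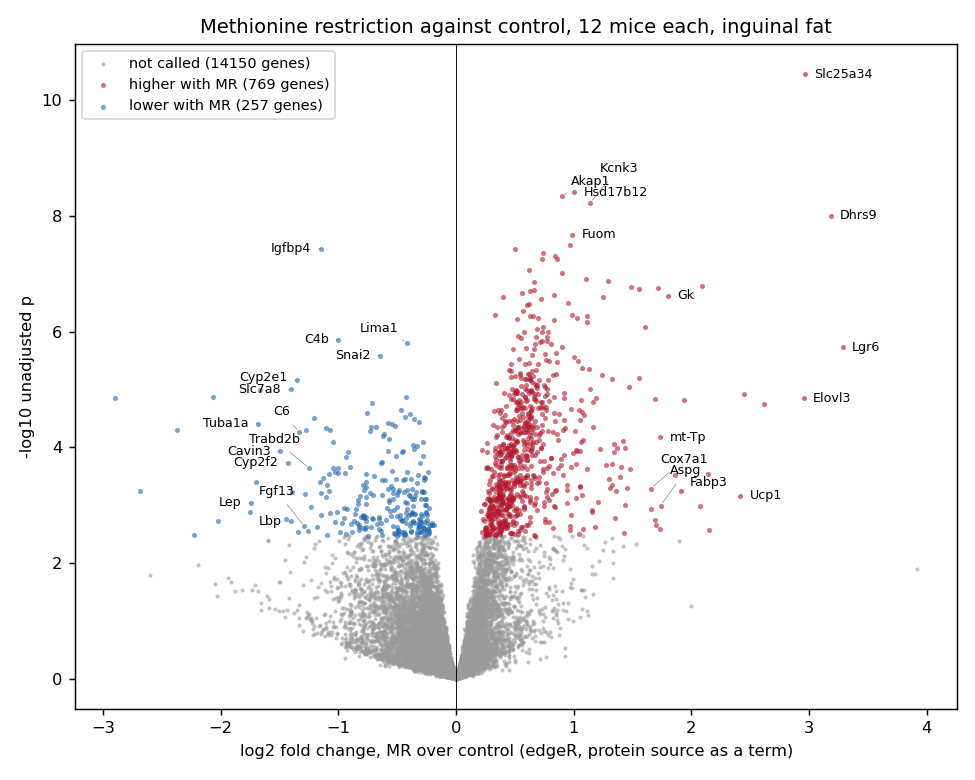
Each point is a gene, with the pooled log2 fold change (MR over control, 12 mice each) on the horizontal axis and -log10 of the unadjusted edgeR p on the vertical axis. The 769 genes called higher are red, the 257 called lower are blue, and labels mark the genes of largest fold change or smallest p, from Lgr6 at 3.29 to Lep at -1.74.

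The smallest p of the comparison belonged to Slc25a34, a carrier of the inner mitochondrial membrane (chr4:141618824-141623821, GRCm38). Levels are given from here on as the lowest, the median and the highest of the 12 mice of a group, in the same TMM-scaled CPM. Log2 fold changes are given as value ± SE with the adjusted p of edgeR. Slc25a34 stood at 6.50, 31.3 and 58.2 CPM in the MR mice and at 1.08, 4.39 and 9.90 CPM in the control mice, a log2 fold change of 2.96 ± 0.26, adjusted p = 5.36e-07. In 11 of 12 MR mice it lay above the highest control, and the exception was oxidized casein MR 6. Dhrs9, a dehydrogenase that acts on retinol, measured 0.310, 6.73 and 13.5 CPM with MR and 0.0797, 0.610 and 2.43 CPM in controls (log2 fold change 3.18 ± 0.38, adjusted p = 2.99e-05). Hsd17b12, the ketoacyl reductase of fatty acid elongation, stood at 271, 342 and 505 CPM with MR and 95.6, 182 and 329 CPM in controls (1.01 ± 0.11, adjusted p = 2.25e-05). Fuom, fucose mutarotase, rose as well (0.99 ± 0.12, adjusted p = 5.32e-05). Lgr6, a receptor for R-spondins, had the largest rise of the genes with an average of at least 2 log2 CPM, at 0.929, 16.4 and 35.3 CPM with MR and 0.0636, 1.23 and 9.27 CPM in controls (3.29 ± 0.52, adjusted p = 0.000444). Both Lgr6 and Dhrs9 lay above every control in 10 of 12 MR mice. Aspg, an asparaginase, was also among the largest rises (1.74 ± 0.46, adjusted p = 0.0212).

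Complete separation of the groups was rare. In 7 genes (0.0461% of those tested) every MR mouse lay above every control mouse, and in 1 gene (0.00659%) every MR mouse lay below. Akap1, which anchors protein kinase A to the outer mitochondrial membrane (chr11:88830792-88864586), stood at 57.7, 73.2 and 88.0 CPM with MR and 25.8, 42.7 and 49.9 CPM in controls, 1.86-fold higher with MR (SE 0.10 on the log2 scale, adjusted p = 2.25e-05). Among the other 6 higher genes, Tbc1d20, which switches off the GTPase Rab1, had a log2 fold change of 0.50, and Bag1, a partner of the chaperone Hsp70, 0.66. Sgpl1, the lyase that ends sphingosine-1-phosphate, had 0.40, and Bsg, a membrane partner of lactate transporters, 0.61. Nabp1, which binds single-stranded DNA, had 0.76, and Pex3, needed to build peroxisomes, 0.45. They were named because the groups did not overlap, after their values were seen. The gene in which every MR mouse was lower was Igfbp4, a secreted protein that binds insulin-like growth factors (chr11:99041244-99054392). It stood at 139, 200.4 and 304 CPM with MR and 306, 445 and 763 CPM in controls, 2.21-fold lower with MR (log2 fold change -1.15 ± 0.15, adjusted p = 6.24e-05).

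**Figure D2:**
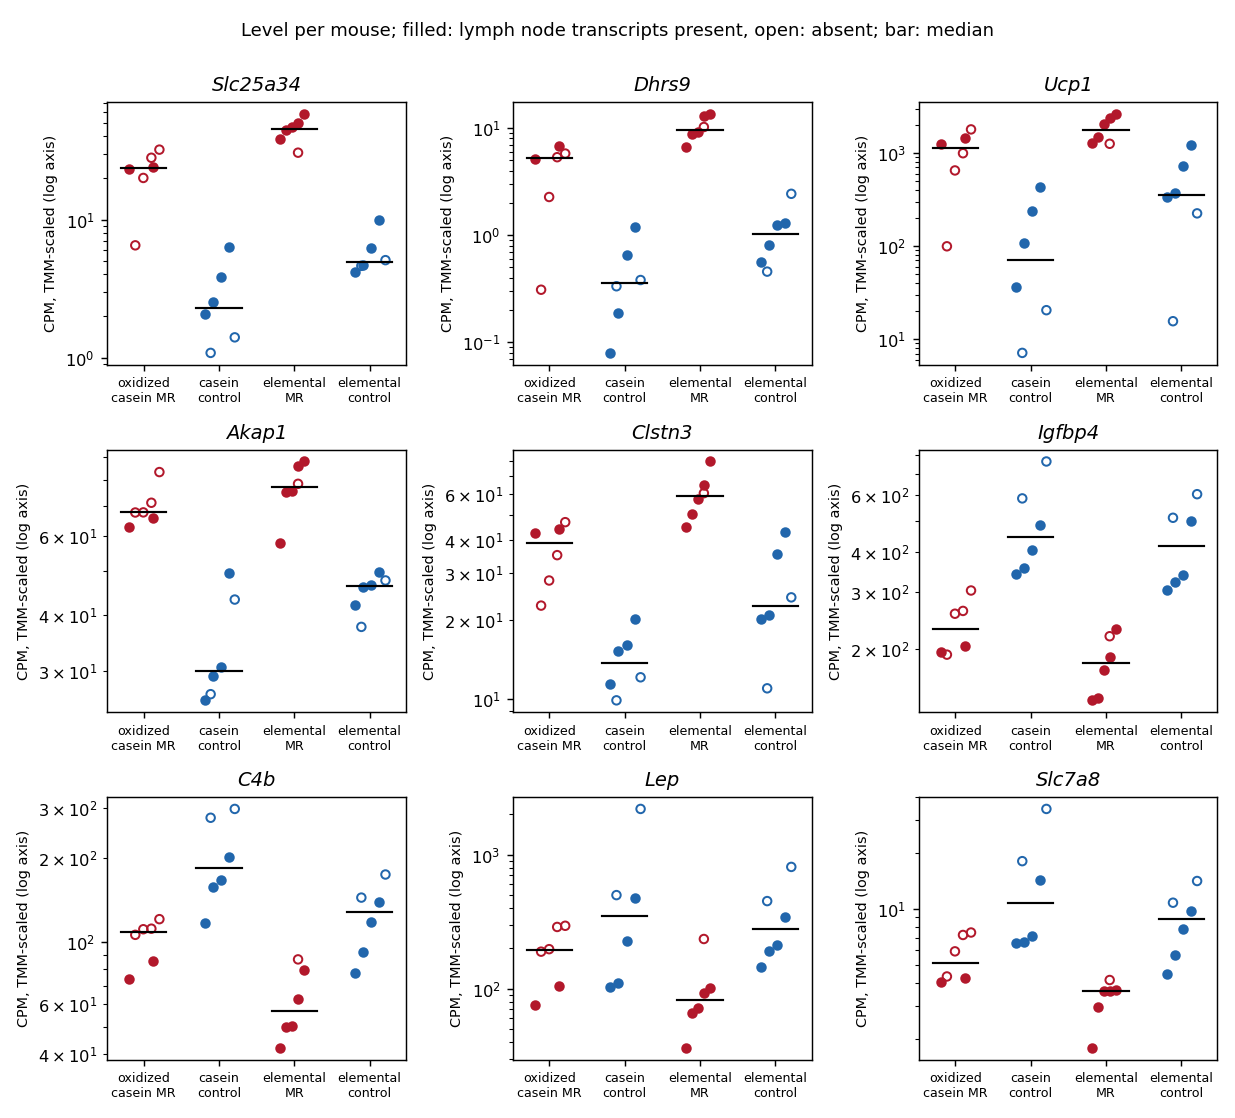
Each point is a mouse and each panel a gene, with TMM-scaled CPM on a log axis, the 4 diets side by side and a bar at the median of the 6 mice of a diet. Filled points are libraries with lymph node transcripts and open points those without, and oxidized casein MR 6 is the low point of that diet for Slc25a34 (6.50 CPM), Dhrs9 and Ucp1 (99.4 CPM).

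Genes of thermogenic adipocytes were higher with MR in 16 of the 27 members tested and lower in 0, with a median log2 fold change of 1.11, against -0.07 over all genes. The share called higher was 59.3%, against 5.07% of all genes. Ucp1 itself stood at 99.4, 1360.2 and 2619 CPM in the MR mice and 7.12, 230.0 and 1211 CPM in the control mice. In 9 of 12 MR mice it lay above the highest control, elemental control 1, and 4 controls lay below the lowest MR mouse. Its pooled log2 fold change was 2.42 ± 0.61, adjusted p = 0.0162, and its log2 CPM passed the exact permutation test within protein sources as well (difference 3.17, 2-sided, adjusted p = 0.000451 over 7 tests, n = 12 each). Elovl3, which elongates fatty acids in brown fat, measured 15.7, 146 and 334 CPM with MR and 0.636, 19.7 and 79.1 CPM in controls (log2 fold change 2.95 ± 0.53, adjusted p = 0.0014), above every control in 10 of 12 MR mice. Fabp3, a fatty acid binding protein, rose (1.91 ± 0.48, adjusted p = 0.0144), and so did Cox7a1, a cytochrome oxidase subunit of muscle and brown fat (1.66 ± 0.41, adjusted p = 0.0134).

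Among the thermogenic genes with smaller errors, Kcnk3, a potassium channel of brown adipocytes, stood at 200.3, 329 and 556 CPM with MR and 74.5, 147 and 280.3 CPM in controls (1.14 ± 0.13, adjusted p = 2.27e-05). Gk, glycerol kinase, which lets a fat cell reuse the glycerol of its own triglyceride, stood at 14.6, 57.9 and 104 CPM with MR and 7.62, 13.6 and 31.6 CPM in controls (1.80 ± 0.25, adjusted p = 0.000132), above every control in 11 of 12 MR mice. Slc25a20, the carrier that brings acylcarnitines into mitochondria, measured 92.0, 159 and 256 CPM with MR and 35.8, 70.8 and 138 CPM in controls (1.11 ± 0.15, adjusted p = 0.000119). Clstn3 measured 22.6, 45.9 and 79.7 CPM with MR and 9.88, 18.1 and 42.9 CPM in controls (1.29 ± 0.18, adjusted p = 0.000119), and since reads come from the 3′ end they cannot separate it from Clstn3b, the short adipocyte transcript of the same locus in mice. The list's other rises were Acot2, Ppargc1a, Cox8b, Plin5, Otop1, Letmd1, Pank1 and Ppara. Cidea, a lipid droplet protein of brown fat named here after its values were seen, did not pass at 313, 743 and 1264 CPM with MR and 23.7, 298 and 1093 CPM in controls (1.33 ± 0.41, adjusted p = 0.053), and passed in DESeq2 (adjusted p = 0.0131) and limma voom (adjusted p = 0.011).

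Some regulators upstream of these genes rose. Of 23 genes of the PPAR, ERR and PGC1 family of regulators, 8 were higher (34.8%, against 5.07% of all genes) and 0 lower. Their median was 0.20. Ppargc1a, the coactivator PGC1-alpha, stood at 15.9, 23.5 and 31.3 CPM with MR and 7.12, 13.0 and 21.5 CPM in controls (0.73 ± 0.15, adjusted p = 0.00281), and its relative Ppargc1b at 43.6, 71.8 and 121 CPM with MR and 15.6, 37.0 and 74.1 CPM in controls (1.06 ± 0.21, adjusted p = 0.00226). Esrra, the nuclear receptor ERR-alpha, had a log2 fold change of 0.69 ± 0.14, adjusted p = 0.00261, and Perm1, a partner of PGC1 and ERR known from muscle, 1.86 ± 0.44, adjusted p = 0.00922. The level of Perm1 was low, with a median of 3.97 CPM with MR and 0.44 CPM in controls. Of 23 genes of adrenergic and cAMP signalling, 8 were higher (34.8%, against 5.07% of all genes) and 0 lower, with a median of 0.33. Besides Akap1 these included Adcy3, an adenylyl cyclase, at 18.7, 27.6 and 36.8 CPM with MR and 9.20, 14.1 and 22.1 CPM in controls (0.97 ± 0.12, adjusted p = 6.24e-05), above every control in 11 of 12 MR mice. Gnas, the stimulatory G protein that links receptors to the cyclase, had a log2 fold change of 0.47 ± 0.10, adjusted p = 0.00529, and Pde4a, which breaks cAMP down, 0.62 ± 0.12, adjusted p = 0.00195.

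The mitochondrial respiratory chain was higher almost throughout. In complex I 97.3% and in complexes II to V 85.4% were called higher, against 5.07% of all genes. Of the 37 nuclear genes of complex I, 36 rose and 0 fell, with log2 fold changes between 0.34 and 0.69 over the list and a median of 0.54. Of 41 nuclear genes of complexes II to V, 35 rose and 0 fell (median 0.60). Ndufa3 of complex I stood at 266, 310.1 and 447 CPM with MR and 140.1, 197 and 336 CPM in controls (0.60 ± 0.10, adjusted p = 0.000456). Cox4i1 of cytochrome oxidase stood at 601, 674 and 934 CPM with MR and 287, 443 and 823 CPM in controls (0.61 ± 0.11, adjusted p = 0.000922). Uqcrfs1, the Rieske protein of complex III, stood at 267, 378 and 564 CPM with MR and 137, 198 and 486 CPM in controls (0.85 ± 0.15, adjusted p = 0.000922). The groups overlapped in each of these genes, with shifts of the whole range rather than separation. Ndufb10, Ndufa12, Ndufv2, Atp5d and Uqcrh, the other genes of smallest p, rose between 1.45-fold and 1.55-fold.

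Transcripts of the mitochondrial genome rose with them. All 8 messenger RNAs of the mitochondrial genome that were tested were called higher, against 5.07% of all genes, with a median of 0.75. The genes mt-Co2, mt-Co3, mt-Atp6, mt-Atp8 and mt-Nd4l were not analysed here. mt-Nd1, a subunit of complex I, stood at 19967, 34286 and 47464 CPM with MR and 9851, 18420.0 and 35468 CPM in controls (0.83 ± 0.15, adjusted p = 0.00138). The log2 fold changes of mt-Nd2, mt-Co1 and mt-Nd5 were 0.79, 0.72 and 0.67. All mitochondrially encoded genes of the count table, ribosomal and transfer RNAs included, were also summed. They took a lowest, median and highest share of 22.6%, 30.4% and 36.2% of the counted reads of the MR mice. In the control mice these shares were 15.1%, 22.1% and 31.1%. Their mean share was 30.4% ± 4.32 with MR and 22.5% ± 5.29 in controls (SD, n = 12 each), a difference of 7.88 percentage points (exact permutation within protein sources, 2-sided, adjusted p = 0.000295 over 7 tests). The groups overlapped, and the difference was 6.24 points within the libraries that held lymph node transcripts and 11.2 points within those that did not (exact permutation adjusted p = 0.00975 and 0.0389). Nuclear copies of mitochondrial sequence can share reads with these genes, and how the authors' counting treated such reads is not given in the sources used here.

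**Figure D3:**
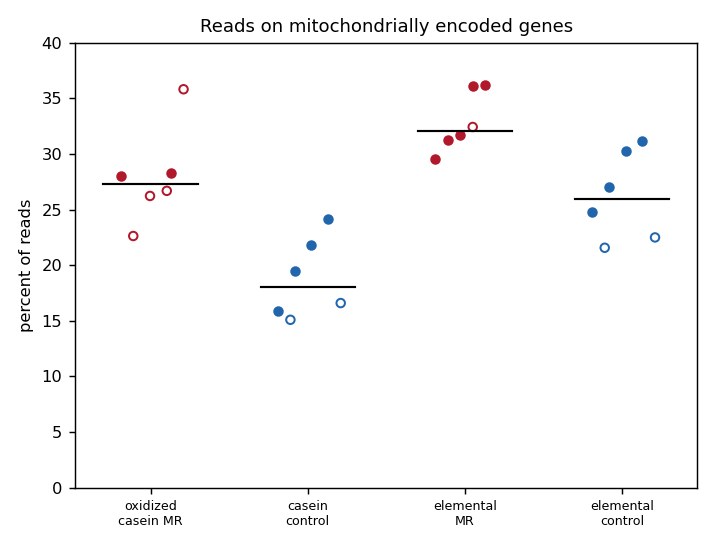
Each point is a mouse, with the percent of its counted reads that fell on mitochondrially encoded genes, by diet, and a bar at the median of the 6 mice. The medians are 27.3% for oxidized casein MR, 18.0% for casein control, 32.1% for elemental MR and 25.9% for elemental control, and filled points mark libraries with lymph node transcripts.

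Most of the genes that feed the chain rose. Shares called higher were 81.8% for the TCA cycle, 75% for fatty acid oxidation and 69.2% for coenzyme Q synthesis, against 5.07% of all genes. Of 22 genes of the TCA cycle, 18 were higher and 0 lower, with a median of 0.68. Idh3a, a subunit of the NAD-dependent isocitrate dehydrogenase, stood at 322, 448 and 737 CPM with MR and 124, 214 and 413 CPM in controls (0.95 ± 0.14, adjusted p = 0.000155). Ogdh, of the oxoglutarate dehydrogenase complex, had a log2 fold change of 0.79 ± 0.13, adjusted p = 0.000648, Sucla2, of succinyl-CoA synthetase, 0.86 ± 0.14, adjusted p = 0.000676, and the malate dehydrogenase Mdh2 0.55 ± 0.10, adjusted p = 0.00116. Fatty acid oxidation had 21 of 28 genes higher and 0 lower (median 0.63). Crat, which moves acetyl groups to carnitine, stood at 126, 148 and 188 CPM with MR and 58.0, 90.6 and 129.7 CPM in controls (0.74 ± 0.10, adjusted p = 6.6e-05), above every control in 10 of 12 MR mice. Etfdh, which passes electrons from fatty acid oxidation to coenzyme Q, stood at 70.2, 122 and 185 CPM with MR and 28.1, 58.8 and 103 CPM in controls (1.11 ± 0.17, adjusted p = 0.000213). Eci1, which shifts double bonds of unsaturated fatty acids, stood at 228, 252 and 348 CPM with MR and 92.4, 142 and 237 CPM in controls (0.83 ± 0.12, adjusted p = 0.000132). Coenzyme Q synthesis had 9 of 13 genes higher and 0 lower (median 0.48), with Coq8a at 1.04 ± 0.20, adjusted p = 0.00173, Coq3 at 0.58 ± 0.09, adjusted p = 0.000308, Coq6 at 0.73 ± 0.14, adjusted p = 0.00147 and Coq9 at 0.67 ± 0.12, adjusted p = 0.00138.

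Promoters of Mdh2 and Etfdh are shown because these genes rose and each holds, within the 250 bases before and 50 after its start, a motif of a factor tied to cAMP or to mitochondrial genes. The sequences are RefSeq's on GRCm38.p6 and run 5′ to 3′ on the strand of the gene. Capitals mark the cAMP response element TGACGTCA in Mdh2 (chr5:135778399-135778698, plus strand) and the NRF1 motif, GCGCA followed by its reverse complement TGCGC, in Etfdh (chr3:79628718-79629017, minus strand), and both motifs read the same on the 2 strands.
Mdh2: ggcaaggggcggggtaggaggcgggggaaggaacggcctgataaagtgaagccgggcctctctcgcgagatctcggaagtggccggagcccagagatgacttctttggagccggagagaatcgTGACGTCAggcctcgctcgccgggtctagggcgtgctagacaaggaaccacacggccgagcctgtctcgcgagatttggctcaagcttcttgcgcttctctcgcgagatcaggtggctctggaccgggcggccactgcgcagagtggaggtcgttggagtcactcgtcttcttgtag
Etfdh: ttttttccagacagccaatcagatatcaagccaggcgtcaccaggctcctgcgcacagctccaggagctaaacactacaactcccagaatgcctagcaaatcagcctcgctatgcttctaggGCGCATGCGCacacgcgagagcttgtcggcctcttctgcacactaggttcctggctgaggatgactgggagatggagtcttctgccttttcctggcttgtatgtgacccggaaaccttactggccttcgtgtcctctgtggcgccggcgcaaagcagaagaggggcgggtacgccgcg
The cAMP response element stood in 26 of 615 promoters of higher genes (4.23%), in 5 of 195 of lower genes (2.56%) and in 365 of 10972 of all genes tested that had a promoter in the table (3.33%). The NRF1 motif stood in 3.41% of the promoters of higher genes, 0.513% of those of lower genes and 2.2% of all. The extended ERR site TCAAGGTCA stood in 0.325% of the promoters of higher genes and 0.319% of all, on either strand. The direct repeat bound by PPAR, AGGTCA copied again after 1 base, stood on either strand in 1 promoter of a higher gene and 5 in all. A match is a run of letters within this window and no measure of binding.

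Lists of mitochondrial upkeep had smaller medians. Calls made up 73.3% of import and quality control and 52.4% of the mitochondrial ribosome, against 5.07% of all genes called higher. The import and quality control list had 22 of 30 genes higher and 0 lower (median 0.39), and the mitochondrial ribosome 22 of 42 higher and 0 lower (median 0.32). Timm50, of the inner membrane import channel, stood at 42.4, 52.0 and 62.5 CPM with MR and 28.9, 34.9 and 45.6 CPM in controls (0.49 ± 0.08, adjusted p = 0.000465), above every control in 11 of 12 MR mice. Chchd3 and Immt, which shape the cristae, had log2 fold changes of 0.56 and 0.51, and the chaperone Hspa9 0.68. Mrpl10, Mrps30, Mrps2 and Mrpl12, proteins of the mitochondrial ribosome, had log2 fold changes of 0.41, 0.31, 0.64 and 0.57. The 51 cytosolic ribosomal proteins contrast with them: 0 were called in either direction in edgeR, DESeq2 or limma voom, 0 had an unadjusted p under 0.05, and their median was -0.09. Among mitochondrial carriers of the Slc25 family, 13 of 39 rose (33.3%) and 1 fell (2.56%), against 5.07% and 1.69% of all genes. Slc25a42, which imports coenzyme A, stood at 10.0, 19.7 and 36.6 CPM with MR and 3.18, 8.55 and 13.3 CPM in controls (1.25 ± 0.18, adjusted p = 0.000132). Slc25a17, a carrier of the peroxisome, had a log2 fold change of 0.66 ± 0.11, adjusted p = 0.000461. The carrier that fell was Slc25a24, which exchanges ATP-magnesium for phosphate (-0.49 ± 0.12, adjusted p = 0.0139). Branched-chain amino acid catabolism had 12 of 24 genes higher (50%, against 5.07% of all genes) and 0 lower (median 0.31). Among them were Slc25a44, the mitochondrial carrier of these amino acids (0.50 ± 0.09, adjusted p = 0.00128), Dbt and Dld, of the dehydrogenase complex that commits them to breakdown (0.61 and 0.69), and Bckdk, the kinase that switches this complex off (0.47).

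**Figure D4:**
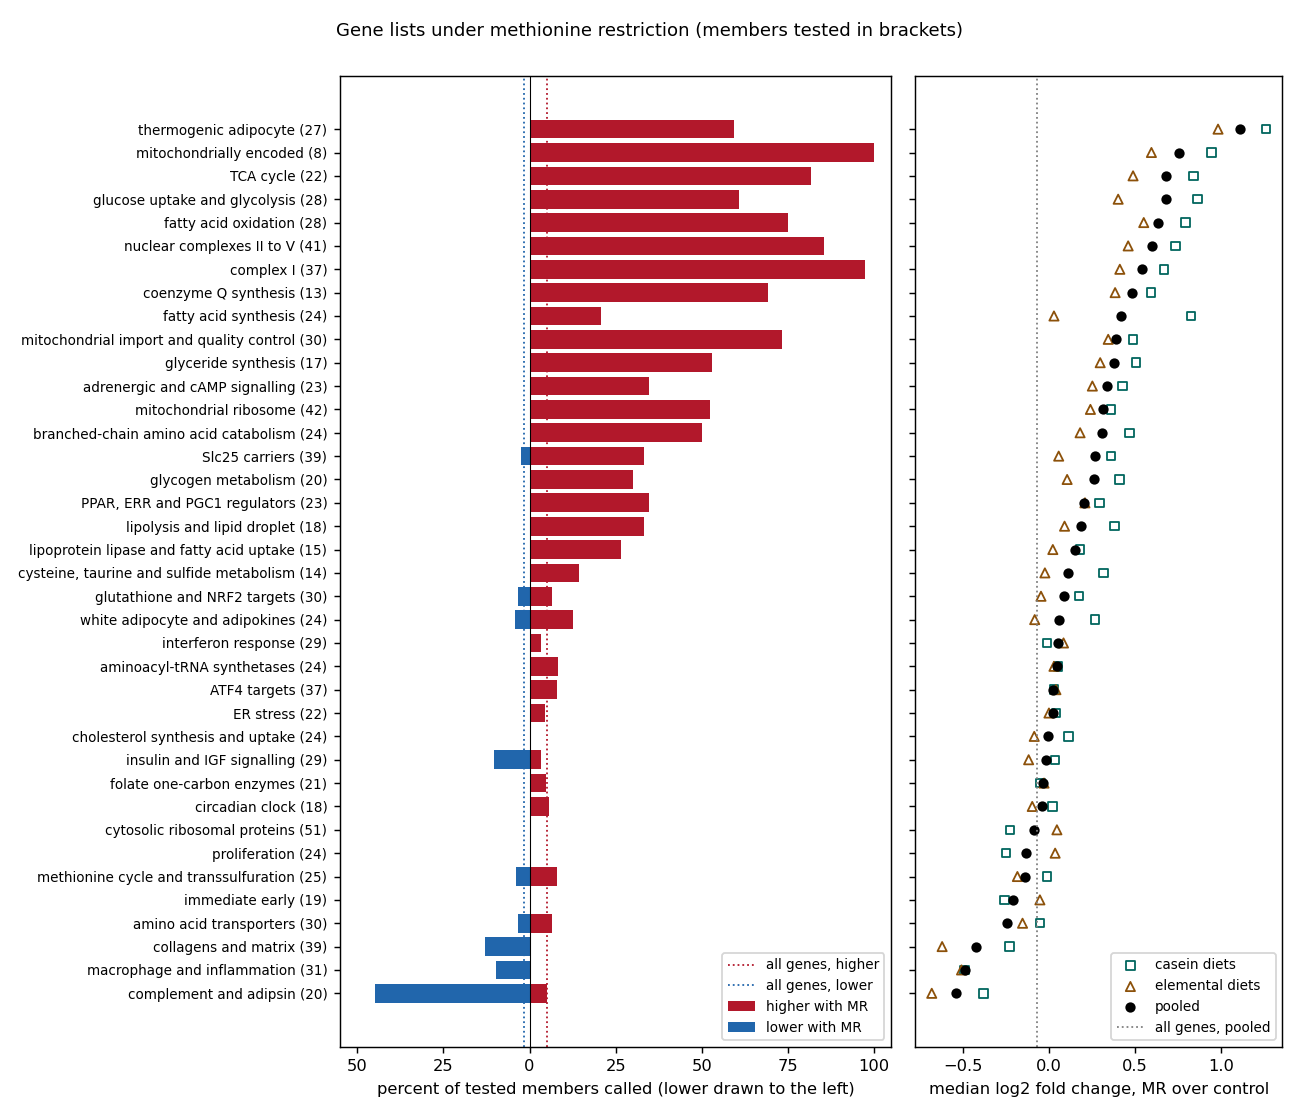
Each row is a gene list, with the number of tested members in brackets. The left panel gives the percent of members called higher (red) or lower (blue, drawn to the left), with dotted lines at 5.07% and 1.69% for all genes, and the right panel the median log2 fold change pooled (black) and on each protein source, where fatty acid synthesis has 0.82 on casein (square) and 0.03 on elemental amino acids (triangle).

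Calls in lists of carbohydrate and glyceride metabolism were all higher. Of 28 genes of glucose uptake and glycolysis 17 rose and 0 fell (median 0.68). Pdk2, a kinase that switches pyruvate dehydrogenase off, stood at 85.9, 101 and 131 CPM with MR and 30.5, 51.9 and 93.4 CPM in controls (0.90 ± 0.12, adjusted p = 9.65e-05). Pdp2, the phosphatase that switches it on, rose as well (0.77 ± 0.14, adjusted p = 0.00123). Mpc2, of the mitochondrial pyruvate carrier, had a log2 fold change of 0.90 ± 0.15, adjusted p = 0.000444 and Pfkl, a phosphofructokinase, 1.08 ± 0.21, adjusted p = 0.00196. Glycogen metabolism had 6 of 20 higher and 0 lower, among them Ppp1r3c, which brings a phosphatase to glycogen (0.92), the branching enzyme Gbe1 (0.50), the primer protein Gyg (0.47) and Pgm1 (0.37). That count was between 4 (without oxidized casein MR 1) and 8 (without elemental MR 5) when 1 library was left out. Glyceride synthesis had 9 of 17 higher and 0 lower (median 0.38). Gpd1, which makes glycerol-3-phosphate, stood at 937, 1895 and 3884 CPM with MR and 356, 785 and 2623 CPM in controls (1.14 ± 0.21, adjusted p = 0.00123). The acyltransferases Agpat3 and Dgat1 had log2 fold changes of 0.63 and 0.59. Lipolysis and lipid droplet genes had 6 of 18 higher and 0 lower. Abhd6, a monoacylglycerol lipase, stood at 47.9, 58.0 and 73.2 CPM with MR and 24.6, 36.2 and 51.3 CPM in controls (0.73 ± 0.10, adjusted p = 6.6e-05). Also called were the droplet coats Plin2 (0.87) and Plin5 (1.22), and Abhd5, which activates the lipase Pnpla2 (0.46). Of 15 genes of lipoprotein lipase and fatty acid uptake 4 rose and 0 fell, namely Acsl1, which activates fatty acids (0.51), Lmf1, which matures the lipase (0.50), Fabp5 (0.60) and the transporter Slc27a1 (0.56).

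Of 24 genes of fatty acid synthesis 5 rose (20.8%, against 5.07% of all genes) and 0 fell, with a pooled median of 0.42. The median was 0.82 on casein and 0.03 on elemental amino acids, a gap that was not tested as such. The count ran from 3 to 9 when 1 library was left out (3 without elemental MR 4, 9 without elemental control 1) and was 10 in DESeq2. Fasn, fatty acid synthase, stood at 3774, 5923 and 9488 CPM with MR and 974, 4429 and 9426 CPM in controls, and only 1 MR mouse lay above the highest control. Its pooled log2 fold change was 0.67 ± 0.21, adjusted p = 0.0493, which did not pass (adjusted p up to 0.0896) in 17 of the 24 fits that left out 1 library. The log2 fold change of Fasn was 1.17 (SE 0.25) on casein and 0.16 (SE 0.25) on elemental amino acids, and the difference had an unadjusted p of 0.00924 that did not pass over all genes (edgeR). Fasn passed the exact permutation test within protein sources (difference 0.72 on the log2 scale, adjusted p = 0.00457, n = 12 each). Scd1, a fatty acid desaturase, did not pass in either test, at 11990.0, 14587 and 22135 CPM with MR and 5556, 12833 and 21234 CPM in controls (0.34 ± 0.18, adjusted p = 0.326, and exact permutation adjusted p = 0.0807, n = 12 each). The other calls were Acaca and Acacb, the acetyl-CoA carboxylases (0.67 and 1.02), Mlxipl, the sugar-sensing factor ChREBP (0.80), and Taldo1 of the pentose phosphate pathway (0.49). None of 24 genes of cholesterol synthesis and uptake was called in edgeR or limma voom, 1 was in DESeq2, and 1 had an unadjusted p under 0.05, Fdps, at a log2 fold change of 0.42 ± 0.13, adjusted p = 0.0592. Fdft1, next in p, stood at -0.22 ± 0.12, adjusted p = 0.328.

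Genes that handle methionine or sense amino acids were called at shares near those of all genes. Of 25 genes of the methionine cycle and transsulfuration 2 rose, 1 fell and 22 were not called, with a median of -0.14. That is 8% higher and 4% lower, against 5.07% and 1.69% of all genes. Those higher were Ahcyl1, a relative of the enzyme that splits S-adenosylhomocysteine (0.56 ± 0.13, adjusted p = 0.00752), and Msra, which repairs oxidized methionine in proteins (0.34 ± 0.09, adjusted p = 0.0284). The lower one, Gamt, spends S-adenosylmethionine on creatine and stood at 8.41, 14.7 and 20.4 CPM with MR and 12.8, 23.8 and 64.2 CPM in controls (-0.93 ± 0.25, adjusted p = 0.0234). The call of Gamt was lost in 2 and that of Msra in 3 of the 24 fits that left out 1 library (adjusted p up to 0.0569 for Gamt, without casein control 5, and up to 0.0534 for Msra). Of 37 ATF4 targets, the genes that answer amino acid shortage, 3 rose (8.11%, against 5.07% of all genes) and 0 fell, with a median of 0.02. They were Cebpb (0.74 ± 0.20, adjusted p = 0.0212), Atf4 itself (0.29 ± 0.08, adjusted p = 0.0269) and Atf5 (0.49 ± 0.14, adjusted p = 0.034), and Atf4 was lost in 4 and Atf5 in 8 of those fits. Asns, asparagine synthetase, stood at 21.5, 33.3 and 46.4 CPM with MR and 15.8, 28.0 and 37.3 CPM in controls and did not pass (0.19 ± 0.13, adjusted p = 0.497; 95% interval -0.09 to 0.46). Psat1, of serine synthesis, did not pass either (-0.21 ± 0.22, adjusted p = 0.665; 95% interval -0.67 to 0.24).

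Transport and redox genes gave single calls. Shares called higher were 4.76% for folate genes, 6.67% for amino acid transporters and for glutathione and NRF2 genes, and 8.33% for aminoacyl-tRNA synthetases. The share was 14.3% for cysteine, taurine and sulfide metabolism, against 5.07% of all genes. Shares called lower were 3.33% for transporters and for glutathione and NRF2 genes and 0% for the others, against 1.69% of all genes. Of 30 amino acid transporters 2 rose and 1 fell, with a median of -0.24. Slc36a2, a transporter of small neutral amino acids, stood at 182, 226 and 264 CPM with MR and 93.6, 142 and 208 CPM in controls (0.63 ± 0.09, adjusted p = 0.000213), above every control in 11 of 12 MR mice. Slc6a6, the taurine transporter, stood at 99.0, 125 and 166 CPM with MR and 63.9, 85.7 and 116 CPM in controls (0.51 ± 0.10, adjusted p = 0.00173). Slc7a8, an exchanger of large neutral amino acids, was the member that fell, at 1.79, 4.10 and 7.47 CPM with MR and 4.47, 8.80 and 34.5 CPM in controls (-1.41 ± 0.25, adjusted p = 0.00123), below every control in 9 of 12 MR mice. Of 14 genes of cysteine, taurine and sulfide metabolism Slc6a6 and the transaminase Got1 (0.55, lost in 14 of the 24 fits without 1 library) were higher. Of 21 folate genes 1 was higher, the folate carrier Slc19a1 (0.53), and of 24 aminoacyl-tRNA synthetases 2 were, Gars (0.41) and the mitochondrial Iars2 (0.31). Of 30 glutathione and NRF2 genes, Gsto1 (0.43) and Srxn1 (0.49, lost in 14 of those fits) were higher. The glutathione transferase Gsta3 was lower, at 11.2, 25.8 and 37.9 CPM with MR and 19.5, 45.7 and 137 CPM in controls (-1.13 ± 0.27, adjusted p = 0.01).

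Among the genes of at least 2 log2 CPM on average that fell, clones aside, the largest fold change belonged to Lep, the adipocyte hormone leptin. Lep stood at 36.2, 103 and 295 CPM in the MR mice and 102, 285 and 2195 CPM in the control mice, below every control in 6 of 12 MR mice. Its log2 fold change was -1.74 ± 0.46, adjusted p = 0.0196, and without casein control 5, the highest control, it was -1.23 and did not pass (adjusted p = 0.0692). The exact permutation test gave a difference of -1.39 on the log2 scale (adjusted p = 0.00975, n = 12 each). Of the 24 white adipocyte and adipokine genes, Lep was the only one called lower, and 3 were higher: Adig, adipogenin (0.54 ± 0.12, adjusted p = 0.00604), Cfd, adipsin (0.77 ± 0.18, adjusted p = 0.00753), and the secreted Nrg4 (0.33 ± 0.10, adjusted p = 0.0497, lost in 19 of the 24 fits without 1 library). The list's median was 0.06. Its shares were 12.5% higher and 4.17% lower, against 5.07% and 1.69% of all genes. Cyp2e1 (-1.35 ± 0.24, adjusted p = 0.000982) and Cyp2f2 (-1.43 ± 0.32, adjusted p = 0.00647), cytochromes P450 that oxidize small molecules, also fell. Cavin3, a coat protein of caveolae, fell 2.82-fold (-1.50 ± 0.32, adjusted p = 0.00473) and Trabd2b, a protease that acts on Wnt proteins, 2.37-fold (-1.24 ± 0.29, adjusted p = 0.00753). Tuba1a, an alpha tubulin whose close relatives can share its reads, fell 3.20-fold (SE 0.33 on the log2 scale), and Fgf13 2.44-fold (SE 0.38), a call lost in 14 of those fits (log2 fold change -0.92 without casein control 5). Snai2, a transcription factor of mesenchymal cells, stood at 3.07, 3.88 and 4.62 CPM with MR and 4.36, 6.23 and 7.36 CPM in controls (-0.65 ± 0.11, adjusted p = 0.000561), below every control in 9 of 12 MR mice. Lima1, which binds actin, fell 1.33-fold (SE 0.07).

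Insulin and growth factor genes gave calls in both directions. Of 29 genes of insulin and IGF signalling 3 fell and 1 rose. That is 10.3% lower and 3.45% higher, against 1.69% and 5.07% of all genes. Besides Igfbp4, Grb14, an adaptor that restrains the insulin receptor, stood at 11.9, 15.1 and 31.4 CPM with MR and 14.2, 34.8 and 60.8 CPM in controls (-1.004 ± 0.23, adjusted p = 0.00745). Igfbp5, another binding protein, stood at 48.9, 72.8 and 149 CPM with MR and 64.3, 109 and 252 CPM in controls (-0.81 ± 0.21, adjusted p = 0.0166). Prlr, the prolactin receptor, rose (1.39 ± 0.33, adjusted p = 0.00972), with 4 of 12 MR mice above every control. The median of the list was -0.02.

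Complement genes formed the list with the largest share of lower calls: 9 of 20 fell (45%, against 1.69% of all genes) and 1 rose, with a median of -0.54. C4b, which forms the protease that splits C3, stood at 42.0, 82.6 and 121 CPM with MR and 77.5, 151 and 299 CPM in controls (-1.001 ± 0.16, adjusted p = 0.000383). Its near copy C4a can share its reads. Cfb, factor B of the alternative pathway, stood at 29.5, 52.1 and 60.3 CPM with MR and 48.3, 74.0 and 190.5 CPM in controls (-0.73 ± 0.15, adjusted p = 0.00281), and 11 of 12 controls lay above the highest MR mouse. C6, of the membrane attack complex, stood at 2.37, 4.43 and 7.32 CPM with MR and 4.36, 8.85 and 32.8 CPM in controls (-1.33 ± 0.27, adjusted p = 0.00287). The other falls were C1qa, C1qc, C1s1, C1ra, C2 and the inhibitor Serping1, while the member that rose, Cfd, is made by adipocytes. Lbp, the binding protein of bacterial lipopolysaccharide, fell too (-1.40 ± 0.40, adjusted p = 0.0335), a call lost in 11 of the 24 fits without 1 library (-0.97 and adjusted p = 0.0798 without casein control 5).

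Macrophage and matrix genes gave a few lower calls (9.68% and 12.8% of their lists, against 1.69% of all genes). Of 31 macrophage and inflammation genes all had a negative log2 fold change (median -0.49), and 3 passed (3 to 7 with 1 library left out, 7 without elemental MR 3): C1qa (-0.54 ± 0.13, adjusted p = 0.00835), C1qc (-0.57 ± 0.15, adjusted p = 0.0189) and Cd68 (-0.73 ± 0.19, adjusted p = 0.0153). Of these, C1qa and C1qc were already counted among the complement genes. All 39 collagen and matrix genes were likewise negative (median -0.42), and 5 passed. Over all genes 5792 of 15176 were positive, and 0 of the tested B cell, T cell, hepatocyte, endothelial and ductal epithelium markers were. Abi3bp, a matrix protein, stood at 13.2, 23.9 and 39.6 CPM with MR and 23.7, 37.6 and 67.1 CPM in controls (-0.76 ± 0.15, adjusted p = 0.00191) and kept its call in all 24 fits without 1 library. Col3a1, Col5a1, Col6a2 and Col6a3 had log2 fold changes of -0.83, -0.79, -0.77 and -0.72, with calls lost in 12 to 14 of those fits, and the count of the list ran from 1 (without elemental MR 1) to 9 (without casein control 3). It was 1 in limma voom, 10 in DESeq2 and 21 with the presence of lymph node transcripts as a term. Single markers of other cell types of the pad were called lower as well. The shares were 6.67% of progenitor, 13.3% of endothelial, 9.09% of smooth muscle and pericyte and 18.2% of granulocyte and mast cell markers. Of all genes 1.69% were called lower. The summed level of 15 progenitor markers was 1272, 2124 and 4186 CPM with MR and 1684, 2742 and 5755 CPM in controls (lowest, median and highest), ranges that overlapped, with Cd34 as the 1 call (-0.64 ± 0.18, adjusted p = 0.0346, lost in 9 of those fits). Of 15 endothelial markers 2 were lower, Plvap (-0.45 ± 0.10, adjusted p = 0.00472) and Pecam1 (-0.26 ± 0.07, adjusted p = 0.0177). Of 11 of smooth muscle and pericytes 1 was lower, Mylk (-0.44, lost in 14 of those fits, and -0.28 without casein control 5). Of 11 of granulocytes and mast cells 2 were lower, Prtn3 (-1.08) and Cpa3 (-0.65, lost in 12). In that list 4 members had a positive log2 fold change, and the median was -0.21. The summed level of the 6 white adipocyte markers had a median of 29170 CPM with MR and 23100 CPM in controls, with 0 of 6 called. With the mean level of those markers as a further term in the model, chosen after seeing the data, 977 genes were higher and 1190 lower, among them 765 of the 769 and 255 of the 257 called without it. In that model 27 collagen and matrix genes were lower and 17 thermogenic genes higher. What part the cell makeup of the pieces has in these values was not tested.

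Lists of other tissues and processes gave few calls or none. The 14 B cell and 15 T cell markers had 0 calls in edgeR, DESeq2 and limma voom, 0 with an unadjusted p under 0.05, and medians of -0.49 and -0.25. Summed B cell markers stood at 70.0, 900.8 and 1684 CPM with MR and 225.8, 1294 and 2343 CPM in controls. Markers of skeletal muscle, keratinocytes, ductal epithelium, hepatocytes, red blood cells and nerve had 0 calls in edgeR and limma voom and 1 in DESeq2, of hepatocytes, and 1 keratinocyte and 1 hepatocyte marker had an unadjusted p under 0.05, both lower. Of the 29 interferon response genes 1 was higher, Ifi27 (0.57 ± 0.11, adjusted p = 0.00167), and of 22 ER stress genes 1, Derl1 (0.43). These were 3.45% and 4.55% of their lists, below the 5.07% of all genes called higher. Of 24 proliferation and 19 immediate early genes 0 were called in edgeR, DESeq2 or limma voom and 0 had an unadjusted p under 0.05, with medians of -0.13 and -0.21.

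Each protein source was also fitted in a model with 1 mean per diet. These values share their libraries with the pooled ones. The difference between the MR effects was called in 0 of 15176 genes in edgeR (0%). An unadjusted p under 0.05 was found in 506 genes, where 758.8 would be expected with no difference and independent genes. Slc25a34 had a log2 fold change of 2.97 (SE 0.38) on casein and 2.96 (SE 0.37) on elemental amino acids. For Ucp1 it was 2.89 (SE 0.88) on casein and 1.94 (SE 0.85) on elemental amino acids, a difference of 0.95 with an SE of 1.17. Igfbp4 had -1.05 (SE 0.21) on casein and -1.24 (SE 0.21) on elemental amino acids. Lep had -1.65 (SE 0.66) on casein and -1.84 (SE 0.66) on elemental amino acids. The smallest p of a difference among the genes named here belonged to Scd1, with 0.91 (SE 0.20) on casein and -0.23 (SE 0.20) on elemental amino acids (unadjusted p = 0.000387), which did not pass over all genes. A p that misses the threshold does not show that the effects were alike: the SE of a difference was 0.42 for Slc25a34, 0.29 for Igfbp4 and 0.91 for Lep on the log2 scale. The median of complex I was 0.67 on casein and 0.41 on elemental amino acids, and that of the TCA cycle 0.84 and 0.49, in the same order. For glucose uptake, glycolysis and pyruvate entry it was 0.86 on casein and 0.40 on elemental amino acids. Collagens and matrix had a median of -0.23 on casein and -0.62 on elemental amino acids, against -0.06 and -0.02 over all genes, and these gaps were not tested. Fitted alone, with 6 mice per diet, the casein diets called 7 thermogenic genes among 319 higher calls in 13814 genes. The elemental diets called 2 thermogenic genes among 22 higher calls in 14439 genes. In the model with 1 mean per diet the median of that list was 1.26 on casein and 0.98 on elemental amino acids. The protein source term of the additive model was called in 256 genes. It sets casein against elemental diets at both methionine levels, and the casein of the MR diet was oxidized. Protein source and oxidation therefore cannot be told apart in it.

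**Figure D5:**
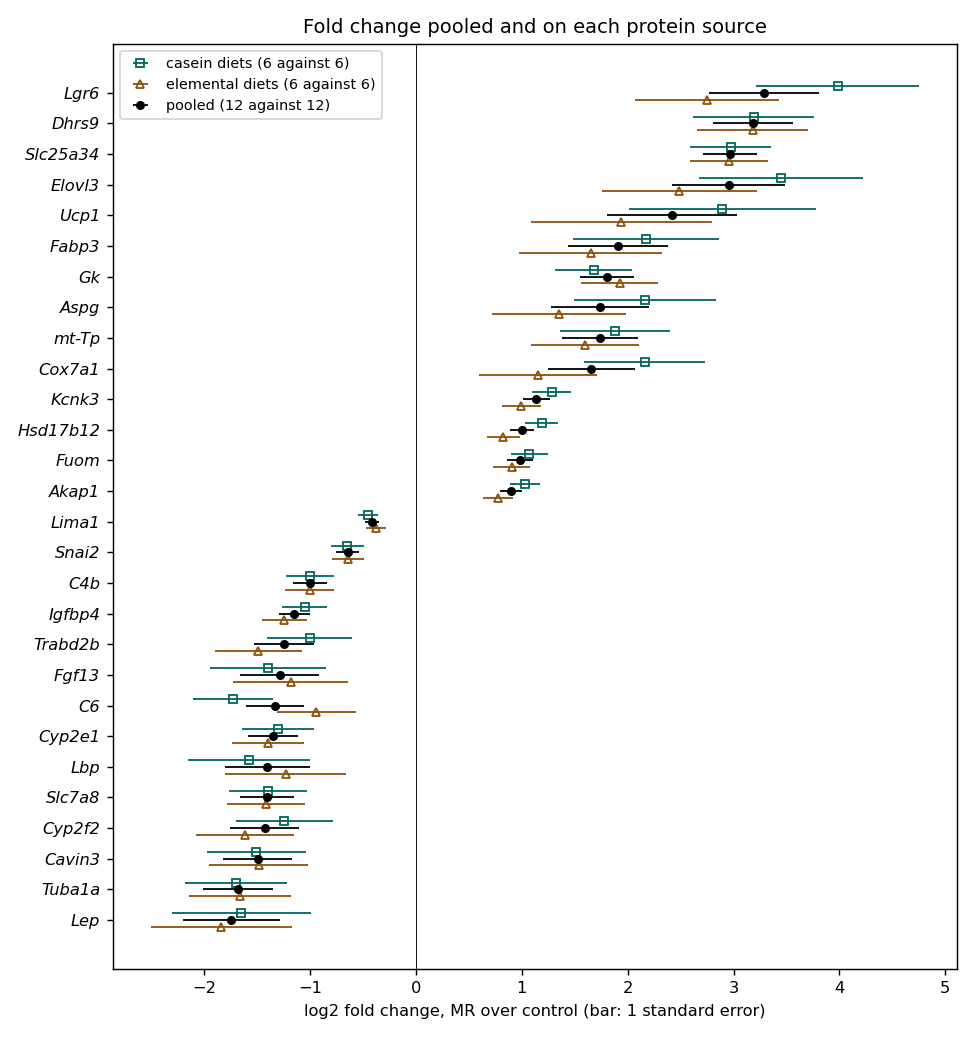
Each row is a gene of largest fold change or smallest p, with the log2 fold change (MR over control) on the horizontal axis and a bar of 1 standard error. Black circles are the pooled values of 12 against 12 mice, squares the casein diets and triangles the elemental diets with 6 against 6 mice, and all 3 lie on the same side of 0 in each of these genes.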

How the data were processed

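QuantSeq 3′ mRNA libraries were read with 50 bp single reads, per the labels. The authors deposited a table of whole-number gene counts. Its smallest gene total is 72 reads, so genes of lower totals were not analysed here. A second deposited table holds a normalized signal, equal to those counts divided by 1 factor per library (largest relative spread 9.8e-15), and was used for that check only. R 3.4.3, DESeq2 1.18.1, GRCm38 and mm10 are named in the submitters' processing notes. Which aligner and counter were run, and with which strand option, is not given in the sources used here. Reads of overlapping or antisense genes may therefore be mixed.

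Counts were analysed in R 4.3.3 with edgeR 4.0.16. There filterByExpr kept 15176 of 16821 genes, and TMM scaled the libraries. The quasi-likelihood test with robust dispersions compared MR with control in a model with protein source as an additive term, with Benjamini-Hochberg adjustment over all genes tested and a threshold of 0.05. The SE of a fold change is its size over the square root of F. A model with 1 mean per diet gave the effect on each protein source and their difference. The deposited labels give each library its own mouse, numbered here in accession order within a diet, and no pair of a diet agreed within counting noise (smallest chi-square per degree of freedom 6.21). The share of mitochondrial reads and 6 genes were tested by exact permutation of MR within protein sources (853776 relabellings, log2 CPM with a prior count of 2 for genes), adjusted over the 7 tests. Reads carry no molecular identifiers, so errors come from the spread between mice. Symbols and positions come from GENCODE M21 and promoters from RefSeq, both on GRCm38.

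Genes named are the 10 higher and 10 lower calls of largest fold change (with average log2 CPM no lower than 2), the 6 of smallest p in each direction, the 6 genes tested by permutation, up to 4 calls of smallest p per list and direction, and genes that a small count rests on. Marker lists with no call are given as lists only. Others are said to be named after their values were seen. The comparison and the 50 lists (38 of processes, 12 of cell markers) were chosen with earlier results of these data known. Lists can share members, such as Slc25a20, Gk and C1qa, so their counts are not independent. Alternatives were DESeq2 1.42.0, limma 3.58.1 voom, other scalings, filters and covariates, each protein source alone, lymph node content, and each library left out. The code was tested on simulated data.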

Additional observations from a re-analysis of the deposited data

Results flagged for a closer look

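In 42 of 672 groups of 6 mice (a gene of the report in 1 diet, or its share of reads) the highest or lowest mouse stood apart by Dixon's criterion, which chance alone flags in about 1 in 20 groups. Values are CPM.

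Several genes, thermogenic ones among them, were low in 1 MR mouse. Oxidized casein MR 6 stood below the other mice of its diet for Ucp1 (99.42), Slc25a34 (6.504), Lgr6 (0.9292), Fabp3 (14.25) and Gk (14.56), and above them for the fatty acid transporter Slc27a1 (88.07). Without being flagged, it was also the lowest MR mouse for Ndufa3, Cox4i1, mt-Nd1 and Idh3a, and the highest for Dgat1, Acsl1 and Cfd. Oxidized casein MR 1 stood above its diet for the respiratory and TCA cycle genes Ndufa3 (361.7), Ndufa12 (221.5), Cox4i1 (778.8), Idh3a (553.9) and Mdh2 (643.3), and for Mrpl10 (65.69), Mlxipl (121) and Bsg (177.2). Oxidized casein MR 5 was low for Fdft1 (8.193). Elemental MR 4 was high for Mdh2 (774.3), Ndufa12 (279.1) and the mitochondrial transfer RNA mt-Tp (227). Elemental MR 3 was low for Akap1 (57.69) and Pdk4 (80.88), elemental MR 1 for Abhd5 (96.83), and elemental MR 2 for Rps4x (44.53) and the mast cell gene Cpa3 (2.767).

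Among controls, casein control 6 stood low for Mdh2 (224.1), Atp5d (146.4), Mrpl12 (53.1), Taldo1 (194.2), Agpat3 (63.07), Gyg (27.51), Fdft1 (6.937), Tbc1d20 (50.71), Bag1 (57.09) and Bsg (65.78). Casein control 3 was high for Gk (31.59) and low for C1qa (63.59), and casein control 5 high for Cfb (190.5) and Mylk (341.1). Elemental control 1 was high for Hsd17b12 (328.6) and Coq9 (116.2), elemental control 5 for C1qa (130.4) and elemental control 6 for Cyp2f2 (75.21), while elemental control 2 was low for Aspg (1.066).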

How the results depend on the processing

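Pooling was compared with 17 other settings and with 24 fits that each left out 1 library. Counts of higher genes ran from 667 to 945 and of lower genes from 157 (without elemental MR 4) to 364 (without elemental control 1) when 1 library was left out, and 633 higher and 131 lower calls were made in all 24 of those fits. DESeq2 called 993 higher and 393 lower, with all 769 and 257 main calls among them. limma voom called 834 higher and 216 lower, with 751 and 194 main calls among them, and 12 of the genes named did not pass in it (Lbp, Fgf13, Gamt, Got1, Col3a1, Col5a1, Col6a2, Col6a3, Cd34, Mylk, Cpa3 and Tubb2a). Without the protein source term 579 were higher and 197 lower, and 24 of the genes named did not pass. Casein diets alone gave 319 higher and 20 lower, and elemental diets alone 22 higher and 1 lower, with 6 mice per diet. Presence of lymph node transcripts as a term gave 917 lower beside 1056 higher, again with all main calls among them. Libraries with those transcripts alone gave 237 higher and 91 lower, and libraries without them 315 higher and 278 lower. The white adipocyte term chosen after seeing the data gave 1190 lower. Lower genes made up 25% of the calls in the main model, 46.5% with the lymph node term, 46.9% in the libraries without lymph node transcripts and 54.9% with the adipocyte term. The causes of these shifts were not tested. The difference in the mitochondrial share was 9.1 points on casein and 6.66 on elemental amino acids, 11.7 over TMM-scaled totals, and 7.09 to 8.41 with 1 library left out. Of the genes named, Scd1 (-0.232 on elemental diets), Rps4x (0.0216 on elemental diets) and Fdft1 (0.0164 on casein diets), not called in the main model, turned sign. Without the 2 muscle-rich libraries 692 genes were higher and 245 lower, and 12 of the genes named did not pass (Fasn, Nrg4, Atf4, Atf5, Got1, Srxn1, Col3a1, Col5a1, Col6a3, Cd34, Mylk and Pdk4). No paired analysis was possible because the labels give no replicate numbers, pairs or litters, and numbers here only follow the order of accessions.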

Other observations

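Further genes, named after their values were seen, add to the picture of what was lower and higher with MR. They were picked singly, so no count or share stands behind that choice. Pdk4 may also be counted in the glucose uptake and glycolysis list, whose largest log2 fold change was likewise 1.44. Tuba1b, an alpha tubulin, stood at 335, 428 and 594 CPM with MR and 426, 631 and 1296 CPM in controls (lowest, median and highest of 12 mice; log2 fold change ± SE -0.72 ± 0.14, adjusted p = 0.00152 in edgeR). The beta tubulins Tubb2a (-0.70 ± 0.18, adjusted p = 0.016) and Tubb5 (-0.42 ± 0.12, adjusted p = 0.0263) fell as well, and Tubb2a did not pass in limma voom (adjusted p = 0.0632). Tuba8, an alpha tubulin of muscle and other tissues, rose, at 5.20, 11.9 and 24.1 CPM with MR and 0.699, 5.07 and 15.2 CPM in controls (1.32 ± 0.33, adjusted p = 0.0122). Tubulins are alike in sequence and can share reads. Serpina3n, a secreted protease inhibitor, stood at 51.4, 104 and 173 CPM with MR and 115, 178 and 758 CPM in controls (-1.15 ± 0.28, adjusted p = 0.0111), and Lrg1, a secreted glycoprotein, had a log2 fold change of -0.76 ± 0.19, adjusted p = 0.0112.

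Mitochondrial RNAs other than the messengers varied in size of change. mt-Rnr2, the large ribosomal RNA, had a log2 fold change of 0.76 ± 0.22, adjusted p = 0.0339, lost in 10 of the 24 fits without 1 library, and mt-Rnr1, the small one, did not pass (0.68 ± 0.22, adjusted p = 0.0666). The transfer RNAs mt-Tm (0.87 ± 0.20, adjusted p = 0.00752) and mt-Tp (1.74 ± 0.36, adjusted p = 0.00332) were higher, although a kit that primes on poly(A) is not made to count them. Chchd10, a protein of the space between the mitochondrial membranes, stood at 1004, 1562 and 2653 CPM with MR and 110.1, 564 and 1472 CPM in controls (1.56 ± 0.27, adjusted p = 0.000977). Pdk4, a further kinase of pyruvate dehydrogenase, stood at 74.4, 194 and 299.9 CPM with MR and 6.35, 76.4 and 216 CPM in controls (1.44 ± 0.38, adjusted p = 0.021). It did not pass without the muscle-rich libraries (adjusted p = 0.0511) or without the protein source term (adjusted p = 0.0554). Oplah, which returns oxoproline to glutamate in the glutathione cycle, stood at 74.2, 94.2 and 137 CPM with MR and 37.0, 54.5 and 85.6 CPM in controls (0.84 ± 0.11, adjusted p = 6.6e-05).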
